A study of Mus musculus with 6 samples.

Results

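The genes described here are Pde11a and 9 further genes of cyclic nucleotide phosphodiesterases, Pde1b, Pde2a, Pde3b, Pde4a, Pde4b, Pde4d, Pde5a, Pde7a and Pde8a. They are 10 of the 51912 genes of an RNA sequencing table of primary mouse fibroblasts. The 10 were chosen by measured values: they were named with the levels of these same libraries in view, and Pde11a because its difference between the groups had passed the test. Their differences between the groups are therefore given as a description, and no test of them is offered as support. Cells were kept for 48 h either with the chemokine CXCL3 or as controls, with 3 libraries in each group. All cells came from mice aged 6 weeks, and no genotype, strain, dose or organ is named in the labels. The labels name one agent, CXCL3, and describe the other group as control. Nothing says that the libraries of a group came from separate cultures or animals, so p-values measure only the spread between these libraries, which may be technical.

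Cyclic AMP and cyclic GMP are second messengers made by adenylyl and guanylyl cyclases and broken down by phosphodiesterases. The enzymes form families that differ in their substrate: PDE4, PDE7 and PDE8 cleave cyclic AMP, PDE5 cleaves cyclic GMP, and PDE1, PDE2, PDE3, PDE10 and PDE11 accept both. In fibroblasts a rise in cyclic AMP is known to restrain the change to contractile, matrix-producing myofibroblasts, and PDE4 enzymes are well known in immune cells, where their inhibition dampens inflammatory cytokine release.

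Levels are in TPM, a share of all transcripts that is scaled to transcript length and keeps no library depth. The scaling is meant to let levels be compared between genes. Differences are CXCL3 minus control on log2(TPM + 1) with their standard error (SE) from a limma fit over 13139 genes with at least 1 TPM in at least 3 libraries. All 10 genes passed this filter, Pde11a only through its control libraries. Controls 2 and 3 stood apart from the other 4 libraries. Their deviations from the average library fell with transcript length across genes (Spearman's rho of -0.50 and -0.48). In control 1 and the CXCL3 libraries rho was 0.20 to 0.45. What this trend does to comparisons between genes, and to sums over genes, was not tested. Of 9 fibroblast markers 7 passed the filter, with a summed level of 1734 to 2525 TPM in controls and 1555 to 1638 TPM with CXCL3. All 10 macrophage markers passed it too, led by the lysozyme gene Lyz2 (13115 to 16166 TPM), and summed to 15280 to 18290 TPM in controls and 14970 to 15070 TPM with CXCL3. For both sums every control lay above every CXCL3 library, as held for 9.31% of all genes tested. The macrophage sum is mostly Lyz2, so it says little of the other macrophage markers. Of the markers tested, 1 of 7 and 1 of 10 were called by limma, Col3a1 and C1qa, beside 0.16% of all genes tested. Not every marker followed its sum: Col1a1 overlapped, at 581 to 973 TPM in controls and 567 to 633 TPM with CXCL3. The part of either cell type in the results below was not tested. Neutrophil markers, nearly all S100a8, summed to 534.4 to 671.1 TPM, those of smooth muscle and pericytes to 35.3 to 47.1 TPM and mesothelial markers to 22.4 to 33.7 TPM, with overlapping groups. Endothelial and epithelial markers summed to at most 7.12 and 1.96 TPM. Markers of T cells, B cells and mast cells summed to at most 2.28 TPM in any library, with Cd3d, Cd3e, Cpa3 and Fcer1a listed at 0 in all. A level is that of the whole culture, in which fewer cells of a type and less RNA per cell cannot be told apart.

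Pde11a was measured in every control library and was at or near 0 in every CXCL3 library. Pde11a encodes a phosphodiesterase that cleaves both cyclic nucleotides and carries GAF domains in its regulatory part. Its level was 2.28 TPM in control 1, 1.73 TPM in control 2 and 2.52 TPM in control 3. With CXCL3 it was 0.04 TPM in library 1 and listed at 0 in libraries 2 and 3. The groups did not overlap, and controls 2 and 3, which stood apart for other genes, lay on both sides of control 1. The log2 difference was -1.64 ± 0.16 (SE; limma, adjusted p = 0.0293), a value by which the gene was chosen. Of the 10 genes, 1 (10.0%) was called in this way, where 0.16% of all genes tested were (0.129% lower and 0.0304% higher), and nothing is read from that count. Because 2 libraries are listed at 0 and the read depth is unknown, no fold change is given.

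Over the 16 alternative fits that included Pde11a, its adjusted p (limma) lay between 0.00485 and 0.227. Its sign could not change in them, since its groups lie apart and chose it. It was above 0.05 with no filter (0.107), without control 3 (0.129), and without CXCL3 library 1 (0.227), 2 (0.175) or 3 (0.184). It was also above 0.05 without controls 2 and 3 together (0.0686). That fit was added after the data were seen and leaves 1 control, whose spread is taken to be that of the CXCL3 libraries. Once the dependence on transcript length and GC content was taken out of each library, the difference was -1.69 ± 0.16.

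Pde11a (ENSMUSG00000075270) lies on the minus strand of chromosome 2 from 75989141 to 76338774 on the mouse build GRCm38, a span of 349634 bases. The annotation gives it 3 protein-coding transcripts. Pde11a-201 has 20 exons and 4189 bases, Pde11a-203 has 15 exons and 1496 bases, and Pde11a-202 has 2 exons and 2209 bases at the 3′ end of the gene. The table gives 1 value per gene, so which of the 3 transcripts made up the control level is not known. The annotated overlapping gene is the microRNA gene Gm44337, on the other strand, listed at 0 in all 6 libraries. Of the 5199 distinct stretches of 50 bases in its transcripts, 9 (0.173%) also occur in transcripts of other genes.

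The 250 bases before the RefSeq start of Pde11a are shown because this is the gene whose groups lie apart, with those of Pde8a, the member of highest level that has a single listed start. Both are from the RefSeq sequence of build GRCm38.p6, 5′ to 3′ on the strand of the gene. That of Pde11a is chr2:76338939-76339188 (minus strand) and that of Pde8a is chr7:81213015-81213264 (plus strand). Capitals mark TGACG, the core of the cyclic AMP response element that CREB-type factors bind, on either strand.
Pde11a: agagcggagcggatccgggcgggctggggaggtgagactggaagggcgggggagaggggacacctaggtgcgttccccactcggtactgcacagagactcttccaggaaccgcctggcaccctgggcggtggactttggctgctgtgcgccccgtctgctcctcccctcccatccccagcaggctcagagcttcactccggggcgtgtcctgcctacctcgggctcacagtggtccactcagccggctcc
Pde8a: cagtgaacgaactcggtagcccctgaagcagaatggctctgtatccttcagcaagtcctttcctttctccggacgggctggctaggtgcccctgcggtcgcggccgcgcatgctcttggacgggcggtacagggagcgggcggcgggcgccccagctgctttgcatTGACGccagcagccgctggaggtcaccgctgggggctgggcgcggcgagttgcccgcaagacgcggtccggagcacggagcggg
Both windows are rich in G and C, at 68.4% and 68.8%. The Pde11a window holds no TGACG on either strand and the Pde8a window holds 1. Over the 8 members with such windows, 3 of 19 windows held TGACG on either strand and 0 held the full element TGACGTCA, which has TGACG within it. Of all 32851 windows of this length, 17.8% held TGACG and 1.55% the full element. Such a match is a description of letters and says nothing of which factor acts there.

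**Figure D1:**
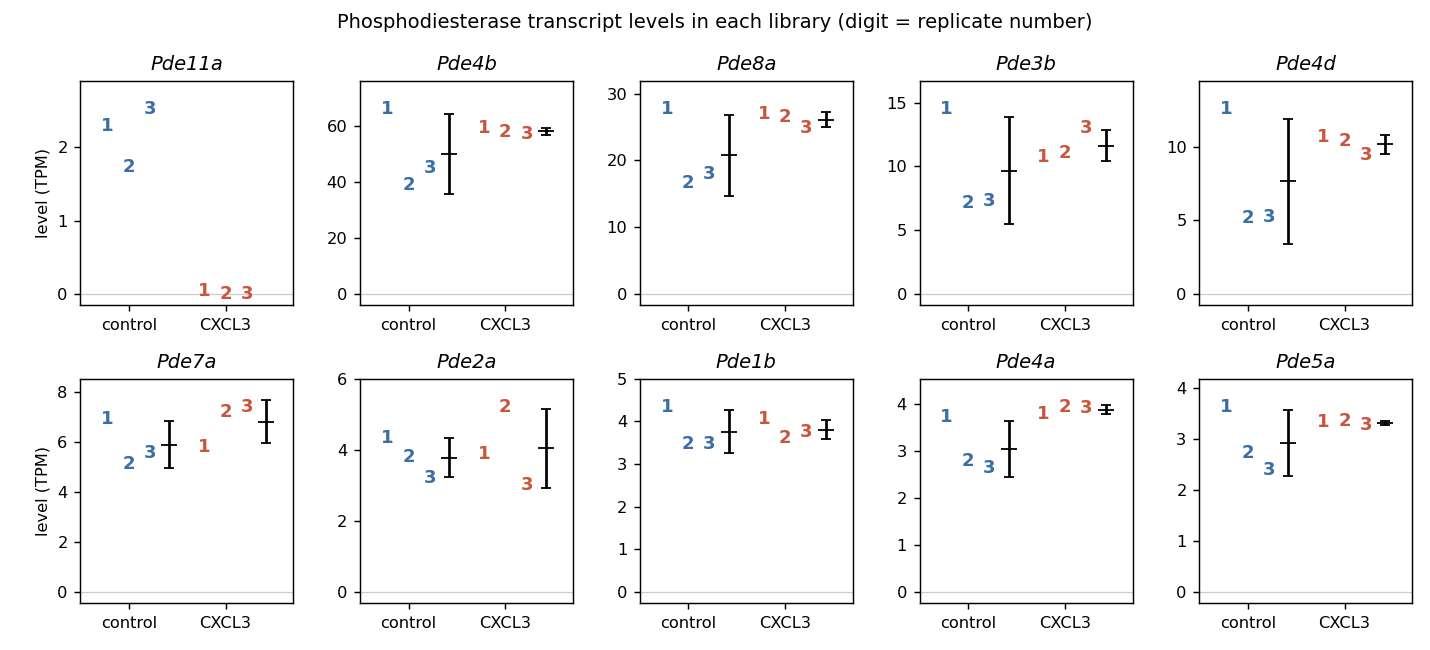
Level of each of the 10 phosphodiesterase genes in TPM (vertical axis, linear, starting at 0) in the control and CXCL3 libraries, where each digit is the replicate number of a library, and bars are mean ± SD of 3 libraries (left out for Pde11a, listed at 0 in 2 of them). Pde11a lies at 1.73 to 2.52 TPM in controls and 0 to 0.04 TPM with CXCL3, while in the other 9 genes control 1 lies above controls 2 and 3.

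A level at or near 0 in one whole group beside 1 TPM or more in the other was rare in these libraries. Only the 13139 genes that passed the filter could show it, since it takes at least 1 TPM in 3 libraries. Over all 51912 genes, 2 had at most 0.1 TPM in all CXCL3 libraries and at least 1 TPM in all controls: Pde11a and Gm43198, an annotated gene of unproven status (1.38, 2.76 and 1.63 TPM in controls 1 to 3, listed at 0 in all CXCL3 libraries). In the other direction 1 gene did so, the long non-coding RNA gene Gm26551, listed at 0 in all controls and at 1.9, 2 and 12.9 TPM in CXCL3 libraries 1 to 3. Pde11a was the protein-coding gene among the 3. The pattern was defined from what Pde11a shows, and Pde11a was chosen by its group difference. Its place among the 3 is therefore a description and no support for that difference. With an upper limit of 0.5 TPM the counts were 2 and 2.

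Genes whose pattern was most like that of Pde11a were found by Pearson's r of log2(TPM + 1) over the 6 libraries. Among the first 5 were Tmem159 (r = 0.998), Tfpi2 (0.997), Acta2 (0.996) and Smpdl3a (0.995), in each of which the control libraries lay above the CXCL3 libraries. This held for 9.31% of all genes tested, and the choice by likeness to Pde11a favoured it. Acta2, the smooth muscle actin gene that marks contractile fibroblasts, was at 1056, 1039 and 1150 TPM in controls 1 to 3 and at 659, 669 and 653 TPM with CXCL3 (log2 difference -0.71; limma, adjusted p = 0.0293). Tmem159, a gene of lipid droplet assembly, was at 38.1, 37.4 and 38.9 TPM in controls and at 32.4, 31.8 and 32.1 TPM with CXCL3. By limma the adjusted p was 0.328 for Tmem159, 0.133 for Tfpi2 and 0.313 for Smpdl3a. All were found by likeness to a gene chosen by its group difference, so their p-values are a description and no support. With 6 libraries in 2 groups, r is high for any gene whose control libraries lie above the CXCL3 libraries with little spread, and 107 genes had an r above 0.95.

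Within 500 kb of Pde11a, a range chosen after the values were seen, 9 genes passed the filter. Of the 9, 0 was called by limma, beside 0.16% of all genes tested, so this count does not set the range apart. The nearest measured protein-coding gene beyond its 3′ end, Ttc30a1, which encodes a protein of intraflagellar transport and lies 7173 bases away, was at 2.66, 1.61 and 2.47 TPM in controls 1 to 3 and 1.6, 2.44 and 2.28 TPM in CXCL3 libraries 1 to 3 (log2 difference -0.06 ± 0.19; limma, adjusted p = 0.885). The groups overlapped there. The nearest beyond its start, the RNA-binding protein gene Rbm45, 31209 bases away, was at 32.7 to 34.8 TPM in controls and 32.1 to 35.3 TPM with CXCL3 (-0.01 ± 0.08, adjusted p = 0.947). Prkra, whose protein activates the kinase PKR, and Fkbp7, a prolyl isomerase gene, had groups that did not overlap, beside 17.2% of all genes tested. Their differences were -0.24 ± 0.10 and -0.29 ± 0.07, with adjusted p of 0.422 and 0.244 by limma. Agps, an ether lipid synthesis gene, had the highest difference of the 9 (0.64 ± 0.25, limma adjusted p = 0.402), with 26.9 TPM in control 1, 13.3 and 13.7 TPM in controls 2 and 3, and 26.2 to 28.2 TPM with CXCL3.

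**Figure D2:**
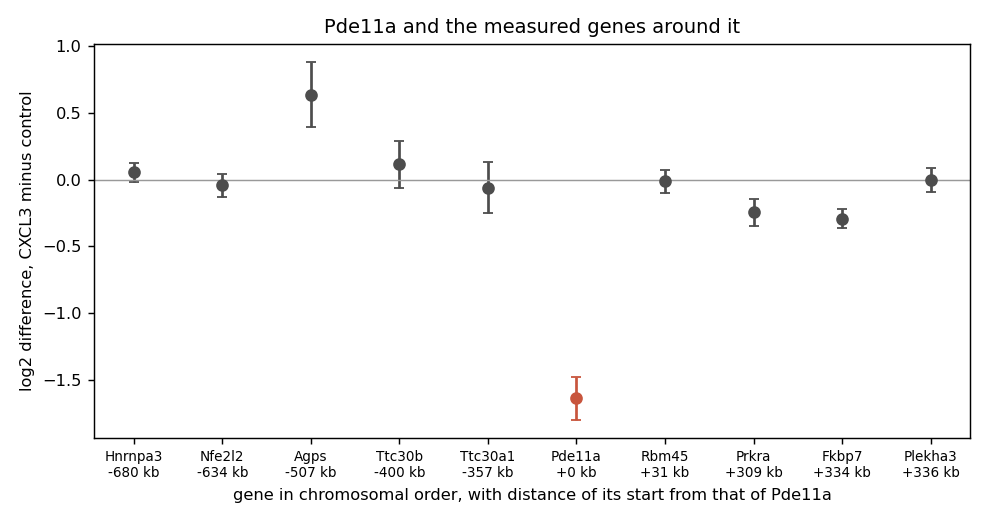
Log2 difference, CXCL3 minus control, with its SE (vertical axis) for Pde11a and the 9 measured genes around it, in chromosomal order with the distance of each start from that of Pde11a in kb. Pde11a lies at -1.64 and the other genes between -0.29 and 0.64.

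The 2 most abundant members, Pde4b and Pde8a, encode enzymes that cleave cyclic AMP. Pde4b, whose enzyme is a major cyclic AMP phosphodiesterase of monocytes and macrophages, stood at 66.2, 38.8 and 44.9 TPM in the controls, in replicate order, and with CXCL3 at 59.3, 57.8 and 57.1 TPM. Its log2 difference was 0.25 ± 0.18. Control 1 was the highest library and controls 2 and 3 the lowest, so that the groups overlapped. Pde8a, of a family with high affinity for cyclic AMP, was at 27.7, 16.7 and 17.9 TPM in controls and at 26.9, 26.6 and 24.8 TPM with CXCL3 (0.35 ± 0.18). Control 1 again lay above all CXCL3 libraries and controls 2 and 3 below them.

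Pde4d, a second PDE4 gene with many start sites, varied most among controls, at 12.6, 5.14 and 5.21 TPM, beside 10.7, 10.4 and 9.43 TPM with CXCL3 (log2 difference 0.47 ± 0.30). Control 1 was 2.43 times the mean of controls 2 and 3. Pde4a, the third, was at 3.72, 2.78 and 2.63 TPM in controls and at 3.78, 3.95 and 3.92 TPM with CXCL3 (0.28 ± 0.15). Its groups did not overlap, with control 1 at 3.72 TPM just below CXCL3 library 1 at 3.78 TPM. Pde7a, of a cyclic AMP phosphodiesterase found in T cells among others, was at 6.93, 5.13 and 5.56 TPM in controls and at 5.81, 7.2 and 7.41 TPM with CXCL3 (0.19 ± 0.16), with overlapping groups.

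Among the genes of dual substrate, Pde3b, whose enzyme is known for its part in insulin action in fat cells, was at 14.5, 7.14 and 7.32 TPM in controls and at 10.8, 11.1 and 13 TPM with CXCL3 (log2 difference 0.31 ± 0.25). Control 1 was the highest library and controls 2 and 3 the lowest. Pde1b, of a calcium and calmodulin dependent enzyme, was at 4.35, 3.47 and 3.46 TPM in controls and at 4.05, 3.62 and 3.76 TPM with CXCL3 (0.02 ± 0.14). Control 1 was the highest library, and controls 2 and 3 lay just below the lowest CXCL3 library.

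Pde2a, whose enzyme is stimulated by cyclic GMP, was at 4.32, 3.79 and 3.22 TPM in controls and at 3.89, 5.22 and 3.02 TPM with CXCL3 (log2 difference 0.06 ± 0.19). It was the one member that varied more among the CXCL3 libraries than among controls. Its value depends on how reads were divided: 62.8% of the distinct stretches of 50 bases in its transcripts also occur in Gm45837, an overlapping protein-coding gene on the same strand. Gm45837 was at 2.05, 0 and 0.86 TPM in controls and at 1.96, 0 and 2.65 TPM with CXCL3, lowest where Pde2a was highest with CXCL3. The sum of both genes, formed after the values were seen, was 6.37, 3.79 and 4.08 TPM in controls and 5.85, 5.22 and 5.67 TPM with CXCL3. In the sum, control 1 was above all CXCL3 libraries and controls 2 and 3 below them. For the other 9 members, between 0% and 0.743% of such stretches occur in another gene, and the PDE4 genes share none of this length.

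Pde5a, whose cyclic GMP phosphodiesterase is the target of sildenafil, was at 3.64, 2.73 and 2.40 TPM in controls and at 3.33, 3.35 and 3.27 TPM with CXCL3 (log2 difference 0.15 ± 0.16). The CXCL3 libraries lay close together and inside the range of the controls.

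In order of their control mean the members were Pde4b, Pde8a, Pde3b, Pde4d, Pde7a, Pde2a, Pde1b, Pde4a, Pde5a and Pde11a. In controls the first 2 were each above the next gene in every library. The ranges of Pde3b and Pde4d overlapped, as did those of Pde4d and Pde7a, and those of each pair of neighbours from Pde2a down to Pde11a. With CXCL3 the neighbours whose ranges overlapped were Pde2a with Pde1b and Pde1b with Pde4a, and Pde11a, at 0.04 TPM or less, was last below Pde5a, at 3.27 TPM or more.

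The 9 members other than Pde11a were alike in the place of control 1 among the controls. In 9 of 9 control 1 was the highest control, where this held for 62.8% of all genes tested, and it was 1.23 to 2.43 times the mean of controls 2 and 3. In 8 of 9, all but Pde2a, both control 2 and control 3 lay below every CXCL3 library, as they did for 44.5% of all genes tested. Outside the list, control 1 was also the highest control for Pde1a, Pde3a, Pde6b, Pde7b, Pde8b and Pde10a, though not for Pde6d. The longest annotated transcripts of the 10 members were 3802 to 7603 bases, where the median of all genes tested was 3213 bases. The SD of the log2 value had a median of 0.23 among controls and 0.065 among CXCL3 libraries for these 9, beside 0.20 and 0.086 for all genes, and was smaller with CXCL3 in 8 of 9.

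The group differences of these 9 rested on which controls were used. With all libraries 9 of 9 were positive, with a median of 0.25, where 62.3% of all genes were positive with a median of 0.07. Without controls 2 and 3, an alternative added after the data were seen that leaves 1 control, 1 of 9 was positive, Pde4a at 0.05, and the median was -0.10. Without control 1, 9 of 9 were positive with a median of 0.40, and Pde3b, Pde4a, Pde4b, Pde4d and Pde8a passed an adjusted p of 0.05 by limma, as did 4254 of the 13139 genes. With the dependence on length and GC content taken out, 6 of 9 were positive and the median was 0.17. Median-of-ratios scaling left 7 of 9 positive. The groups did not overlap for 2 of the 10 members , Pde11a lower and Pde4a higher, where this held for 17.2% of all genes tested (9.31% lower and 7.92% higher). The part of transcript length in these values was not tested beyond the removal of its trend.

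**Figure D3:**
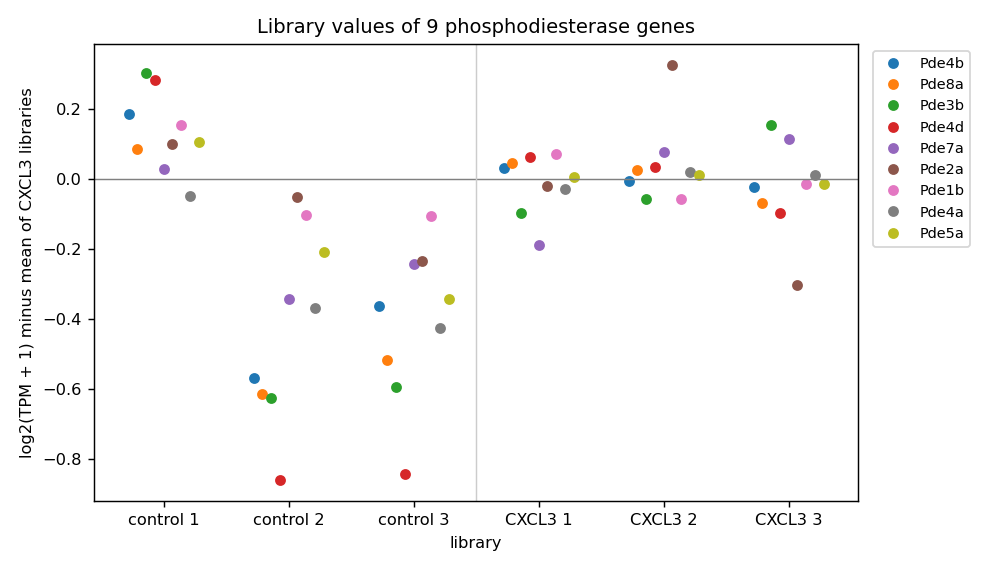
Deviation of each library (horizontal axis) from the mean of the 3 CXCL3 libraries on log2(TPM + 1) (vertical axis) for the 9 members other than Pde11a, 1 colour per gene. Controls 2 and 3 lie below 0 for all 9 genes, and control 1 lies above 0 for all but Pde4a.

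The transcripts of the family were summed to see what made up the pool. Over the 10 members and 14 further phosphodiesterase genes, the sum was 209.1, 140.0 and 154.1 TPM in controls 1 to 3 and 186.6, 185.9 and 178.4 TPM with CXCL3. Pde4b made up 29.5% ± 1.98 of it in controls and 31.6% ± 0.471 with CXCL3 (mean ± SD, n = 3 each). Pde6d made up 19.2%, 29.3% and 28.9% of it in controls 1 to 3 and 19.8% to 20.8% with CXCL3. This sum holds Pde6d, Pde6g and Pde6h, which encode no catalytic subunit. Without these 3, an alternative added after the data were seen, the sum was 168.7, 98.9 and 108.1 TPM in controls and 147.7, 147.7 and 142.3 TPM with CXCL3. In that pool Pde4b made up 40.0% ± 1.35 in controls and 39.8% ± 0.573 with CXCL3. The share was 39.2%, 39.3% and 41.6% in controls 1 to 3, and control 3 was the highest library. Pde8a made up 16.4% to 16.9% in controls and 17.4% to 18.2% with CXCL3, ranges that did not overlap. With Pde11a left out of the pool, chosen after seeing the data, they were 16.7% to 17.2% and 17.4% to 18.2%. Ranges also lay apart for Pde6b, whose share was higher with CXCL3, and for Pde1a and Pde11a, whose shares were lower.

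Genes of cyclic AMP specific enzymes made up 73.0% ± 0.914 of the catalytic pool in controls and 74.8% ± 0.384 with CXCL3 (mean ± SD, n = 3 each). Genes of dual substrate made up 24.4%, 24.6% and 23.2% in controls 1 to 3 and 21.6%, 21.2% and 21.9% with CXCL3, so that every control lay above every CXCL3 library. Pde11a, which was chosen by its group difference, is within these shares and was 5.54%, 7.12% and 10.0% of the dual-substrate sum in controls and 0.125% or 0 with CXCL3. With Pde11a left out of the pool, chosen after seeing the data, the dual-substrate share was 23.3%, 23.2% and 21.4% in controls and 21.6%, 21.2% and 21.9% with CXCL3, and the groups overlapped. The cyclic AMP specific share was then 73.4% to 75.7% in controls and 74.6% to 75.3% with CXCL3, also overlapping. Genes of cyclic GMP specific enzymes made up 2.97% ± 0.317 in controls and 3.58% ± 0.514 with CXCL3, with overlapping ranges. These shares were not tested.

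**Figure D4:**
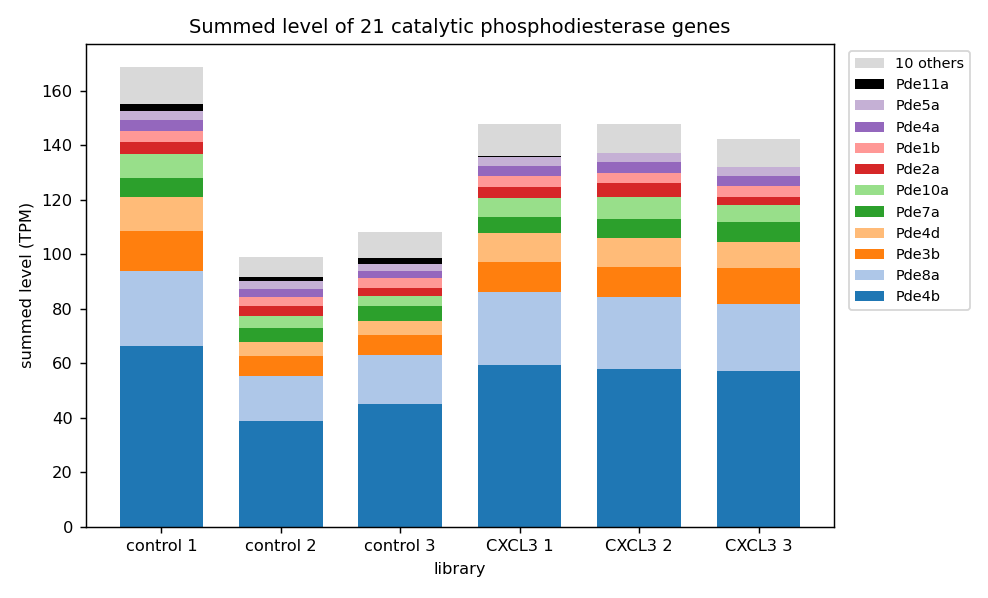
Summed level in TPM (vertical axis, from 0) of 21 catalytic phosphodiesterase genes in each library, with 1 colour per gene for the 10 members and Pde10a and grey for the other 10 genes. The bars of controls 2 and 3, at 98.9 and 108.1 TPM, are the lowest, Pde4b is the largest part of each bar, and the black part, Pde11a, is visible in the controls.

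Of the 14 phosphodiesterase genes outside the list, 7 passed the filter and 0 of 7 was called by limma (1 of 7 at an unadjusted p under 0.05), beside 0.16% and 11.6% of all genes tested. Pde6b, a catalytic subunit gene of the photoreceptor enzyme, was at 0.85, 0.56 and 0.67 TPM in controls and at 1.18, 2.67 and 1.38 TPM with CXCL3 (log2 difference 0.66 ± 0.22, adjusted p = 0.361). It passed the filter through its CXCL3 libraries. Pde6d, which encodes a carrier of prenylated proteins, was at 40.2, 41.0 and 44.6 TPM in controls and at 38.8, 38.2 and 35.4 TPM with CXCL3 (-0.16 ± 0.08; limma, adjusted p = 0.470). The groups of these 2 did not overlap, in opposite directions, as held for 17.2% of all genes tested. Pde10a was more abundant than 5 of the 10 listed members in controls, at 8.78, 4.32 and 3.59 TPM, beside 6.38 to 8 TPM with CXCL3 (0.40 ± 0.28). Without control 1 Pde10a passed an adjusted p of 0.05 by limma, as did 4254 of the 13139 genes tested. Of the cyclic AMP genes, Pde7b was at 2.67 ± 1.16 and 2.94 ± 0.803 TPM and Pde8b at 1.39 ± 0.498 and 1.17 ± 0.217 TPM in controls and with CXCL3 (mean ± SD, n = 3 each). Of the dual-substrate genes, Pde1a was at 2.96 ± 0.813 and 2.29 ± 0.793 TPM, and Pde3a at 1.97 ± 0.692 and 2.19 ± 0.507 TPM.

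Around the phosphodiesterases, 105 genes were listed by their roles, with earlier results of these data known. They are genes tied to the making, sensing, anchoring or export of cyclic nucleotides, or to CREB. Of these, 65 passed the filter and 0 of 65 was called in either direction by limma, beside 0.16% of all genes tested. An unadjusted p under 0.05 was found for 10 of the 65 (15.4%), beside 11.6% of all genes tested, and groups did not overlap for 11 (16.9%), beside 17.2%. Positive differences were 52 of 65 (80.0%), against 62.3% of all genes. Without controls 2 and 3 they were 22 of 65 (33.8%), where the median difference of all genes tested was -0.079. Without control 1 they were 55, of which 27 passed an adjusted p of 0.05 by limma, as did 4254 of the 13139 genes tested. The share of positive differences thus turned with the controls that were used.

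Of the adenylyl cyclases, which make cyclic AMP, 7 of 10 were measured, with 6 positive and 1 negative difference and a median of 0.26. Adcy7 was the most abundant, at 26.2, 12.9 and 15.5 TPM in controls and 19.3 to 22.6 TPM with CXCL3. Adcy6 was at 18.6, 8.78 and 9.23 TPM in controls and at 15.7 to 18.4 TPM with CXCL3 (log2 difference 0.49 ± 0.26; limma, adjusted p = 0.470), and Adcy3 at 7.99 ± 2.34 and 10.5 ± 0.47 TPM (adjusted p = 0.457). In all 3 genes controls 2 and 3 were the lowest libraries. Of 15 genes of guanylyl cyclases, natriuretic peptide receptors and nitric oxide synthases, 2 were measured. Nos2, the inducible nitric oxide synthase gene typical of activated macrophages, was at 93.8, 61.1 and 59.2 TPM in controls and at 99.7, 97.7 and 93.2 TPM with CXCL3 (0.47 ± 0.17; limma, adjusted p = 0.376). The natriuretic peptide receptor gene Npr2 was at 19.9 ± 2.71 and 20.5 ± 1.13 TPM (adjusted p = 0.868). The soluble guanylyl cyclase subunit genes Gucy1a1 and Gucy1b1 stayed under 1 TPM in all libraries and were not tested.

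Of the effectors, 14 of 24 were measured, 13 positive and 1 negative, with a median of 0.15. Pkib, which encodes an inhibitor of protein kinase A, was at 3.58, 3.99 and 3.86 TPM in controls and at 8.78, 5.94 and 10.2 TPM with CXCL3 (log2 difference 0.92 ± 0.19; limma, adjusted p = 0.158). Its groups did not overlap, its controls lay close together, and the difference missed the threshold. Prkg2, a cyclic GMP dependent kinase gene, was at 11.2, 8.42 and 8.50 TPM in controls and at 14.1, 11.3 and 13 TPM with CXCL3 (0.42 ± 0.15, limma adjusted p = 0.375). The protein kinase A subunit gene Prkar1a was the most abundant, at 194 ± 26.8 and 202 ± 5.5 TPM (mean ± SD, n = 3 each; limma, adjusted p = 0.742), and the inhibitor gene Pkig followed at 41.4 ± 6.54 and 42.3 ± 1.31 TPM.

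Of 18 kinase anchors and phosphodiesterase partners, 13 were measured, 10 positive and 3 negative, with a median of 0.19. Ezr, which encodes ezrin, a linker of membrane and actin that also anchors protein kinase A, was at 22.4, 15.7 and 17.6 TPM in controls and at 26.1, 26.6 and 27.5 TPM with CXCL3 (log2 difference 0.52 ± 0.13; limma, adjusted p = 0.263). The anchor gene Akap12 was the most abundant, at 85.4 ± 33.5 and 88.7 ± 4.64 TPM. The groups of Ezr did not overlap, whereas those of Akap12 did. The exporter genes Abcc4 and Abcc5 were at 12.7 ± 3.87 and 15.5 ± 0.578 TPM, and at 20 ± 4.28 and 25.7 ± 2 TPM (limma, adjusted p = 0.498 and 0.426).

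Receptors coupled to Gs, which raise cyclic AMP, were the list with a negative median, -0.08, with 3 of 9 measured genes positive and 6 negative. The adenosine receptor gene Adora2b was the most abundant, at 37.1 ± 2.13 and 34.9 ± 1.73 TPM, followed by the prostaglandin E2 receptor gene Ptger2 at 13.9 ± 2.17 and 13.1 ± 0.897 TPM (mean ± SD, n = 3 each). The smallest p belonged to Ptger4 (8.19 ± 1.45 and 6.75 ± 0.477 TPM; limma, adjusted p = 0.499) and Calcrl (4.88 ± 1.92 and 6 ± 0.467 TPM; 0.540). Of 19 genes of the CREB family and its targets, 18 were measured, 16 positive and 2 negative, with a median of 0.20. Nr4a1, an immediate early gene that cyclic AMP induces, was at 19.2, 17.0 and 18.9 TPM in controls and at 24.3, 23.2 and 20.9 TPM with CXCL3 (0.30 ± 0.10; limma, adjusted p = 0.371), with groups that did not overlap. Creb1 was at 13.1, 5.79 and 7.03 TPM in controls and at 12.8 to 14.8 TPM with CXCL3 (0.66 ± 0.26; limma, adjusted p = 0.406). The early genes Dusp1 (66.2 ± 8.84 and 70.6 ± 4.21 TPM) and Fos (51.8 ± 9.56 and 47.1 ± 0.256 TPM) were the most abundant of this list.

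**Figure D5:**
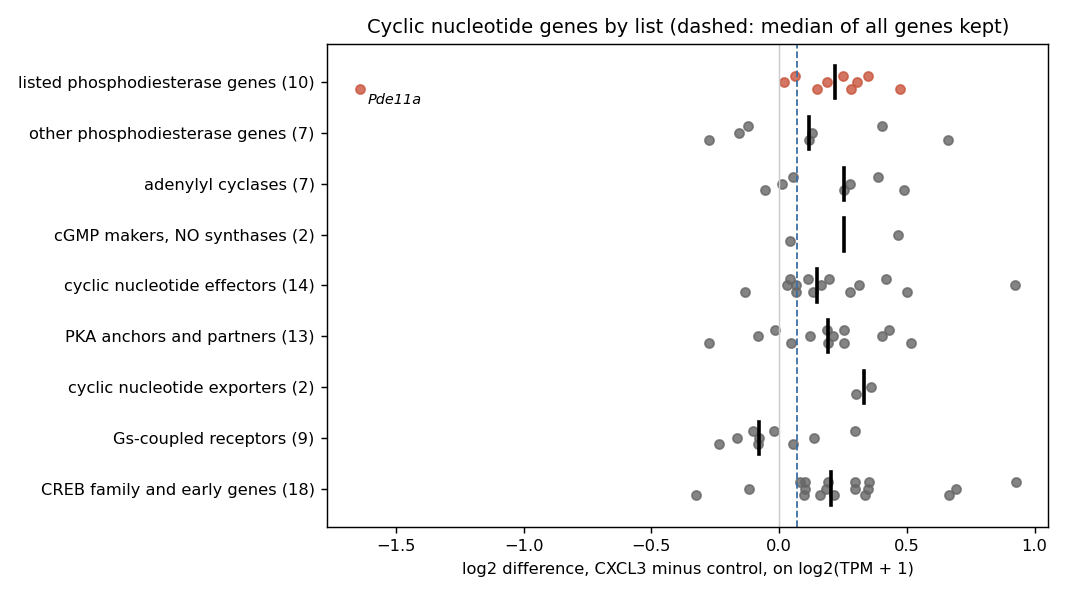
Log2 difference, CXCL3 minus control, on log2(TPM + 1) (horizontal axis) of each measured gene by list, with the number of genes in brackets, a black bar at the median of each list and a dashed line at the median of all genes tested (0.07). Pde11a lies at -1.64, apart from the other 9 listed phosphodiesterase genes, which lie between 0.02 and 0.47.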

How the data were processed

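RNA of 6 libraries of primary mouse fibroblasts, 3 control and 3 with CXCL3 by the treatment label, was sequenced. TPM per gene come from the authors' deposited table of 51912 genes. Tools named by the submitters' processing notes are fastp, HISAT and RSEM, on the build GRCm38.p5, with tool versions, annotation release and strandedness not given in the sources used here. GENCODE M21, an annotation of GRCm38, gave symbols for 51719 genes. Promoter windows are from RefSeq.

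Genes with at least 1 TPM in at least 3 libraries (13139) entered a limma 3.58.1 fit (R 4.3.3) of log2(TPM + 1), with a mean-variance trend and Benjamini-Hochberg adjustment over all of them at 0.05, two-sided. The fit was tested on simulated data. TPM keeps no depth, so no counting interval is given, and an exact two-sided permutation test with 3 libraries a group has 0.1 as its smallest p. RSEM divides reads among genes that share sequence. The members and lists were chosen with earlier results of these data known. Genes named outside the members are, by rule, the kept phosphodiesterase genes, the 2 genes of smallest p and the 2 of highest level in each list, the 5 most like Pde11a, those with the near-0 pattern, and the nearest neighbours; some genes that the rule names are not reported here. Prkra, Fkbp7, Agps, Gm45837, Gucy1a1, Gucy1b1, Lyz2 and S100a8 were added after values were seen. Alternatives were the pseudocount (0.1 and 5), the filter (none and 5 TPM), scaling, variance model, library weights, replicate block, removal of the length and GC trend by loess, and libraries left out.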

Additional observations from a re-analysis of the deposited data

How the results depend on the processing

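The count of all genes called by limma, 21, was 16 and 20 with the other pseudocounts. Without a filter it was 0 (1928 at an unadjusted p under 0.05), under median-of-ratios scaling 4, under eBayes without trend 1 and under library weights 1446. It was 12 after removal of the length and GC trend, and 84 without controls 2 and 3, chosen after seeing the data. Leaving out 1 library gave 0 to 4254 calls: 4254 without control 1, 10 without control 2, 0 without control 3, CXCL3 1 or CXCL3 2 (875, 765 and 799 at an unadjusted p under 0.05) and 1 without CXCL3 3. Library weights called 10 cyclic nucleotide pathway genes, all higher, and Pde4d and Pde8a beside Pde11a among the members. Leaving out 1 library gave 0 to 27 calls in the pathway lists and 0 to 1 among the other phosphodiesterase genes, the highest without control 1. The log2 difference of Pde11a was -4.33 with a pseudocount of 0.1 and -0.52 with one of 5, and it could not be fitted under a filter of 5 TPM. The share of Pde4b was 45.6% in controls and 45.4% with CXCL3 over the members alone, and 40.0% and 39.8% over catalytic genes. The genes near 0 in controls alone were 2 with a limit of 0.5 TPM.

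No pairing by replicate number was seen. The correlation of deviations was 0.12, -0.01 and 0.08 for same-numbered libraries, beside -0.17 to 0.13 for the others. With 3 libraries a group, such values cannot exclude a pairing. With the replicate block 12 genes were called, Pde11a among them (limma, adjusted p = 0.047), and 0 of the other phosphodiesterase or pathway genes. Low TPM limits Pde11a in particular: the number of reads behind 2 TPM is unknown.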
